A study of Homo sapiens with 12 samples.

Results

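LAPTM5, FOXO1, HHEX and FAM43A are the 4 genes described here, each with a strong PAX5 binding site in a window named after it. That site was present in every peak list of 2 Burkitt lymphoma lines. It was absent from both lists of a Hodgkin lymphoma line made to produce PAX5. The distance of a site from its gene was not measured. The genes and a window around each on hg19 were chosen by measured values, namely the presence of a peak in all 4 Burkitt lists, its absence from both L428-PAX5 lists and a high rank of its p-value. Those values are therefore given as a description, with no test. The windows span 80 kb at LAPTM5, 170 kb at FOXO1, 120 kb at HHEX and 60 kb at FAM43A, and they held 42 of the 25380 peaks of the 6 lists. Peaks that overlapped or touched were merged, which gave 16 regions in the windows of 14465 in all, 4 main sites and 12 neighbours.

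Raji and Namalwa are established cell lines from Burkitt lymphoma, a cancer of germinal-centre B cells, and were untreated. L428-PAX5 comes from the Hodgkin line L428 and was treated with mifepristone, with PAX5 overproduction induced 48 h before the cells were fixed, and the sources used here do not say whether it is 1 clone. All were fixed with 1% formaldehyde and precipitated with the same PAX5 antibody (C-20), with 2 precipitated libraries a line and 1 deposited peak list for each. The labels name the libraries of a line by number only, so their spread may be technical, and read depths are unknown.

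PAX5 is a paired-domain transcription factor that B cells need to enter and keep their lineage: it binds promoters and enhancers, activates B-cell genes and silences genes of other lineages. LAPTM5 is a transmembrane protein of lysosomes in blood cells that lowers the amount of antigen receptor on the surface of lymphocytes. FOXO1 is a forkhead transcription factor held in check by PI3K and AKT signalling, needed at several stages of B-cell development and in the germinal centre, and HHEX is a homeobox transcription factor of early blood, liver and endothelial cells that also acts in germinal-centre B cells. FAM43A encodes a protein whose function is little described.

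To compare the genes in sequence, the 250 bases before the start of each are printed from RefSeq on GRCh38.p14. They run 5′ to 3′ on the strand of the gene. All 4 genes matched by symbol. The stretches are LAPTM5 chr1:30757775-30758024 (minus strand), FOXO1 chr13:40666642-40666891 (minus), HHEX chr10:92689705-92689954 (plus) and FAM43A chr3:194685633-194685882 (plus). Capitals mark matches on either strand to 4 short motifs: GCGTGAC (a core of the PAX5 site), CCAAT (the CCAAT box), GGAAGT (an ETS-factor core) and TATAAA (the TATA box).
LAPTM5: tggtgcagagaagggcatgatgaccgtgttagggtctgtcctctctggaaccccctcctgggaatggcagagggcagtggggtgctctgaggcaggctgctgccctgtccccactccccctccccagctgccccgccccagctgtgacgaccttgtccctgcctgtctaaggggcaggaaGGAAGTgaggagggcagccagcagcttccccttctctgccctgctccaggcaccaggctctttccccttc
FOXO1: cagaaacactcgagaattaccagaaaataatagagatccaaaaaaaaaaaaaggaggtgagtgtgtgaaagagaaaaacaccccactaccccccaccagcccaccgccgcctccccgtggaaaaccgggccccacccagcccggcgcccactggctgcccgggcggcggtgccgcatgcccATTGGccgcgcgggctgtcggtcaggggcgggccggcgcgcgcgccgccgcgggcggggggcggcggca
HHEX: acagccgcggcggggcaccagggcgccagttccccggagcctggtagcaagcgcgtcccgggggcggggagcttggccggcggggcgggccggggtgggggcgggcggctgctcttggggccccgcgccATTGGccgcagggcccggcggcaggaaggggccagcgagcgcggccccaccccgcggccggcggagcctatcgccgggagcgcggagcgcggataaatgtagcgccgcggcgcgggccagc
FAM43A: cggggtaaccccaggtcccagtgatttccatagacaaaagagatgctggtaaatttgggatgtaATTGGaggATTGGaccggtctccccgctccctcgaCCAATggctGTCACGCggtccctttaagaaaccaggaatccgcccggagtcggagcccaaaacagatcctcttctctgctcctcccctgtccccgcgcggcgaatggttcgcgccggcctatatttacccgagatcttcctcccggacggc

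Only the FAM43A stretch held the PAX5 core among these 4, once, read on the opposite strand and beginning 142 bases before the gene's start. The same letters occurred in 2.20% of the 35114 promoter stretches of this length. CCAAT was present in FOXO1 (1 match), HHEX (1 match) and FAM43A (3 matches) and in 32.0% of all stretches. LAPTM5 carried 1 match, to the ETS core, which 19.5% of all stretches held. The exact letters TATAAA were found in none of the 4, against 10.7% of all. Variants of the TATA box were not searched, so its absence is not shown. None of these motifs was present in all 4 stretches. No base lay in matches of different motifs. The GC content was 58% in FAM43A, 64.8% in LAPTM5, 67.2% in FOXO1 and 81.2% in HHEX, with a median of 58% over all stretches. LAPTM5 had the fewest CpG dinucleotides of the 4, with 3 (22.9% of all stretches had fewer), against 19 in FAM43A, 27 in FOXO1 and 38 in HHEX (96.7% had fewer), where the median of all was 11. These are descriptions of letters. The peaks lie on hg19, whose sequence was not used here, so whether a peak covers one of these stretches, and whether a peak is in an exon, intron or UTR, was not analysed here. On GRCh38.p14 the closest protein-coding genes on either side are MATN1 and SDC3 for LAPTM5, KIF11 and EXOC6 for HHEX, and LSG1 and XXYLT1 for FAM43A, and MRPS31 follows FOXO1 on its higher-numbered side. A site in a window is named after the gene of the window, and which gene it acts on was not tested.

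The 4 main sites were among the strongest peaks of all 4 Burkitt lists. Their peaks lay within the first 27 of 2619 in Raji 1, 30 of 4960 in Raji 2, 51 of 6241 in Namalwa 1 and 99 of 2107 in Namalwa 2, ranked from the smallest p. In all 16 pairs of a window and a Burkitt list the main site had the smallest p of the window. Windows and main sites were chosen by p, so this and the ranks above follow largely from that choice. Of all merged regions, 695 (4.80%, exact 95% interval 4.46 to 5.17% by Clopper-Pearson, counting error only) had a peak in all 4 Burkitt lists and none in L428-PAX5. This share moved with the lists, to 8.54% without Namalwa replicate 2 and 8.23% with all lists cut to the length of the shortest. In the windows, 5 of the 16 regions belonged to this class, 4 of them by choice of the windows. By mean percentile within the lists (the share of a list with a larger p, averaged over the 4 Burkitt lists), LAPTM5 ranked 2, HHEX 5, FAM43A 9 and FOXO1 10 of the 695. At the edge of this top 10, the FOXO1 site had a mean percentile of 98.3 and the region ranked 11, chromosome 7, 105698039 to 105699213, had 98.2, so the order there rests on small differences.

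**Figure D1:**
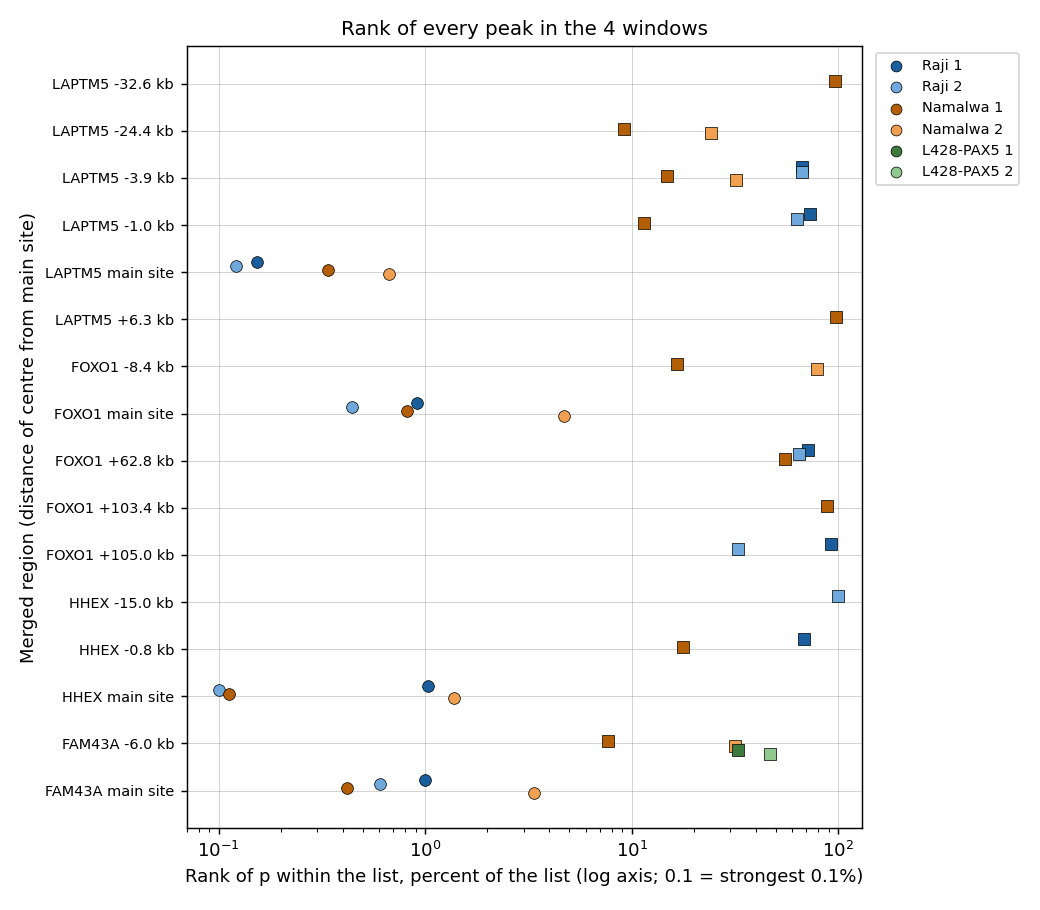
Rank of each peak in the 4 windows as a percent of its list (x axis, log scale, small is strong) for every merged region (y axis, named by gene and distance of its centre from the main site in kb); colours are libraries, circles are main sites and squares neighbours, and points of a row are offset vertically by library. Main-site peaks lie between 0.101 and 4.70% of their lists, and neighbour peaks between 7.68 and 99.4%.

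At LAPTM5, the main site was chromosome 1, 31227458 to 31228006. The −log10 p was 47.8 in Raji 1, 72.2 in Raji 2, 79.3 in Namalwa 1 and 42.4 in Namalwa 2. These values put it at rank 4 and 6 in the Raji lists and at rank 21 and 14 in the Namalwa lists. As a percent of the list, the ranks were 0.153 and 0.121% in Raji and 0.336 and 0.664% in Namalwa. The −log10 p ranges of the lines overlapped and, within a line, the longer list had the larger value. A −log10 p moves with read depth, and a rank as a percent of the list moves with the length of the list, so both describe the lists and give no order of binding between libraries.

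The LAPTM5 peaks were narrower than the median of the strongest peaks of their lists. Its peaks were 440 and 535 bp wide in Raji and 514 and 422 bp in Namalwa, a mean of 478 ± 55 bp (SD, n = 4). The strongest 5% of each list had a median width of 534 bp in Raji 1, 576 bp in Raji 2, 680 bp in Namalwa 1 and 605 bp in Namalwa 2, above the LAPTM5 peak in every case. The lower quartiles of those strongest peaks were 447 and 470 bp in Raji and 561 and 484.5 bp in Namalwa. Only the Raji 2 peak at LAPTM5 (535 bp) was above its quartile. Of the 695 regions of the class, 67.9% had a larger mean width.

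LAPTM5 had 5 neighbours in its window and FOXO1 had 4 in a longer one. Main site included, both windows held 4 regions without Namalwa replicate 1 and with lists of equal length, and with windows widened by 50 kb LAPTM5 held 6 and FOXO1 held 9. The closest neighbour of LAPTM5, chromosome 1, 31226597 to 31226976, was centred 0.955 kb below the main site and separated from its edge by 482 bp. It had a −log10 p of 6.11 in Raji 1, 6.98 in Raji 2 and 21.3 in Namalwa 1, and no peak in Namalwa 2. It stood at 11.5% of the Namalwa 1 list, and only at 73.0 and 63.4% of the Raji lists.

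A further neighbour of LAPTM5, chromosome 1, 31223618 to 31224020, lay 3.89 kb below the main site and was the 1 neighbour of all 12 with a peak in all 4 Burkitt lists and none in L428-PAX5. Its −log10 p was 6.42 in Raji 1, 6.74 in Raji 2, 18.6 in Namalwa 1 and 9.69 in Namalwa 2. It thus ranked 562 of the 695 regions of the class, in contrast to rank 2 for the main site next to it. Its place in the lists was 66.7% in both Raji lists, and 14.9 and 31.9% in Namalwa. At this neighbour the Namalwa ranks were ahead of the Raji ranks, while at the main site the Raji ranks were ahead. How many regions of the class have either order was not counted. With 2 libraries a line and lists of different length, this order was not tested. The Raji peaks of these neighbours were 266 to 276 bp wide, with at most 2.48% of the peaks of their lists narrower.

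The region at chromosome 1, 31203066 to 31203535, 24.4 kb below the LAPTM5 main site, had a peak in both Namalwa lists and in no other. Its −log10 p was 23.6 in Namalwa 1 and 11.01 in Namalwa 2, at 9.20 and 24.2% of these lists. Across the windows, 2 of the 12 neighbours had this Namalwa-only pattern, which 3.51% of all merged regions had. The last LAPTM5 neighbours, at 31194829 to 31195312 and 31233583 to 31234474, were in Namalwa 1 only, with −log10 p of 5.12 and 5.11, close to the weakest peak of that list (5.01). Neither L428-PAX5 list had a peak in the window: the nearest lay 788 kb (replicate 1) and 185 kb (replicate 2) from the main site. Over the 695 regions of the class the median distance was 116 kb in replicate 1 (quartiles 36.7 and 268 kb). In replicate 2 it was 253 kb (quartiles 84.7 and 609 kb).

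**Figure D2:**
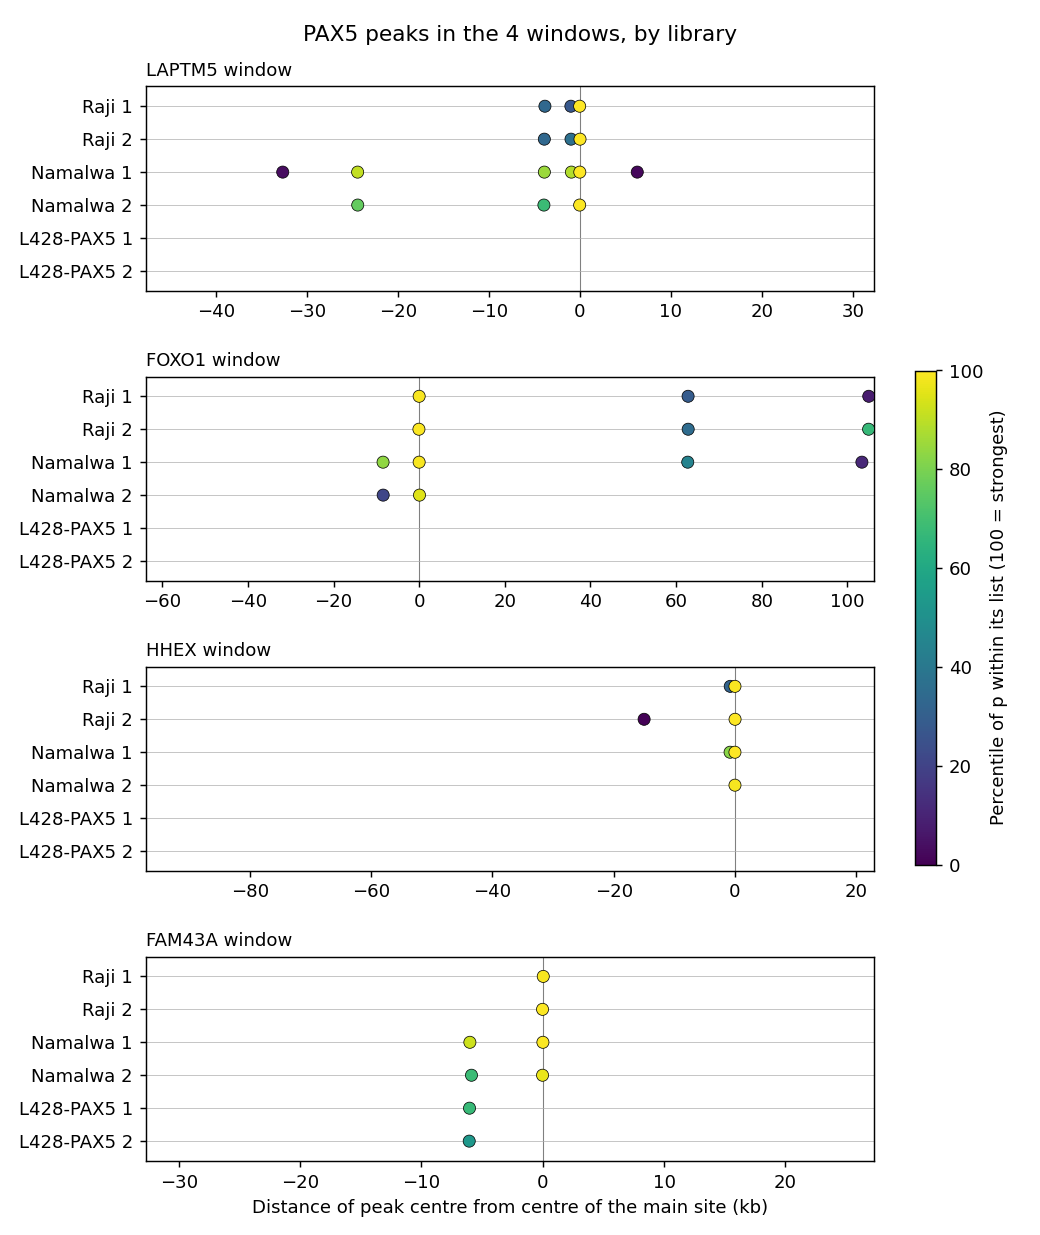
Centre of every peak in the 4 windows, as distance from the centre of the main site in kb (x axis, which spans the window), by library (y axis); colour is the percentile of the peak's p within its list. L428-PAX5 has peaks in the FAM43A window only, 6.0 kb below the main site, and 2 of the 5 LAPTM5 neighbours are in Namalwa 1 alone.

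At FOXO1, the main site was chromosome 13, 41163432 to 41164266. The −log10 p was 32.4 in Raji 1, 52.6 in Raji 2, 59.1 in Namalwa 1 and 20.8 in Namalwa 2. The ranks were 24 and 22 in Raji and 51 and 99 in Namalwa. Namalwa 2 stood apart from the rest, with the site at 4.70% of its list against 0.444 to 0.916% in the other 3. The FOXO1 peak there was also the narrowest, 466 bp against 598, 786 and 773 bp in Raji 1, Raji 2 and Namalwa 1.

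The centres of the FOXO1 peaks spread most widely of the 4 sites, and their shared part was the smallest share of the span. The centres of its peaks spread over 134 bp, and the bases covered by all 4 peaks (455 bp, 41163726 to 41164181) made up 54.6% of the span of the site. Over the 695 regions of the class the median spread of centres was 95 bp and the median shared part 58.2%. A smaller spread than at FOXO1 was found in 67.1% of the class, and the other 3 sites were placed more closely than the class median. Most of the class is weaker than these sites, and spread was not compared among regions of like strength.

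FOXO1 had 4 neighbours, none in more than 3 lists. The region 41226094 to 41227264, 62.8 kb above the main site, had a −log10 p of 6.21 in Raji 1, 6.90 in Raji 2 and 8.03 in Namalwa 1. It had no peak in Namalwa 2, the shortest list. This pattern of both Raji lists and Namalwa 1 was shared by 2 of the 12 neighbours (the other is the closest one at LAPTM5) and by 3.68% of all regions.

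At the other side of the FOXO1 main site, 8.42 kb below it, the region 41155121 to 41155776 was in both Namalwa lists only, with a −log10 p of 17.5 and 5.81. Near the upper end of the window, the region 41268627 to 41269039 was in both Raji lists only, with a −log10 p of 5.26 and 10.8. It was the sole neighbour of that pattern (3.05% of all regions). The weaker peak of each of these regions was far down its list, at 79.0% in Namalwa 2 and 92.1% in Raji 1. With the better 50% of each list, 41155121 to 41155776 kept a peak in Namalwa 1 only and 41268627 to 41269039 in Raji 2 only. A weak peak slightly closer to the main site, 41267104 to 41267432, was in Namalwa 1 only (−log10 p 5.51) and did not touch the Raji peaks.

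A region just past the edge of the FOXO1 window also belonged to the Burkitt-only class. It lay 1.34 kb beyond the edge, at chromosome 13, 41271338 to 41272265, and was examined after its values were seen. Its −log10 p was 10.7 in Raji 1, 12.9 in Raji 2, 9.11 in Namalwa 1 and 6.94 in Namalwa 2, and it ranked 486 of 695. Nearest to the FOXO1 main site in L428-PAX5 was a replicate 1 peak 70.3 kb away, at 41092385 to 41093104 (−log10 p 9.33, rank 1919 of 6201), outside the window. In replicate 2 the nearest lay 563 kb away.

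At HHEX, the main site was chromosome 10, 94516798 to 94517493. It had the smallest p of the 4 sites in Raji 2 (−log10 p 77.2, rank 5) and in Namalwa 1 (95.7, rank 7). In the shorter list of each line it was weaker by rank, with a −log10 p of 32.0 and rank 27 in Raji 1 and 34.2 and rank 29 in Namalwa 2. Within each line the HHEX ranks thus spanned nearly the whole range over both lines, with 1.03 and 0.101% of the list in Raji and 0.112 and 1.38% in Namalwa.

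The peak centres of the HHEX site had the smallest spread of the 4. They fell within 17.5 bp of each other in the 4 libraries, and 1.15% of the 695 regions of the class had a smaller spread. Nearly all of the class ranks below HHEX by p, and spread was not compared among regions of like strength. The widths were 521 and 504 bp in Raji and 695 and 495 bp in Namalwa (mean 554 ± 95 bp, SD, n = 4), and all 4 peaks shared 486 bp, 94516911 to 94517397, or 69.9% of the span, against 77.0% at LAPTM5. The Namalwa 1 peak reached furthest on both sides.

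HHEX had a satellite next to its main site. The region 94516178 to 94516532 was separated from the main site by 266 bp and had a −log10 p of 6.36 in Raji 1 and 16.7 in Namalwa 1. It had no peak in Raji 2 or Namalwa 2, although Raji 2 is the longer Raji list and ranked the main site higher. Of the 695 regions of the class, 10.2% had another region within 1 kb, as LAPTM5 and HHEX do. The other HHEX neighbour, 94502038 to 94502304, was in Raji 2 only, with a −log10 p of 5.01 at 99.4% of the list. In L428-PAX5 the nearest peaks were 317 and 655 kb away.

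**Figure D3:**
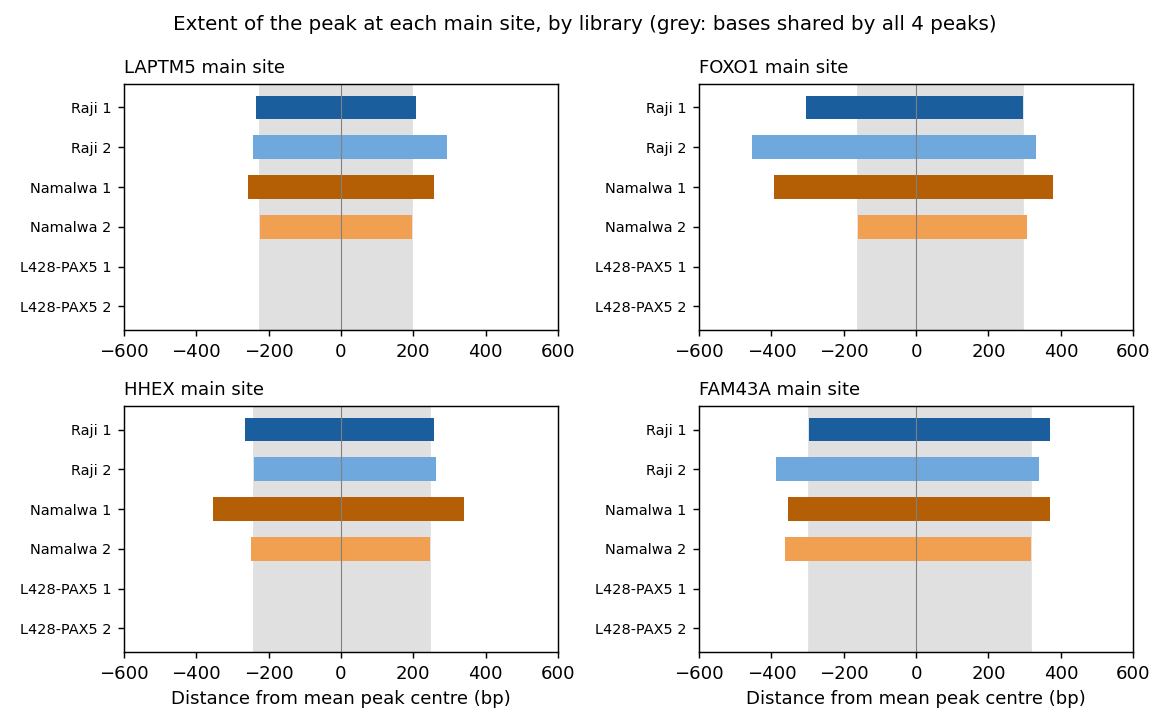
Extent of the peak at each main site by library, in bp from the mean of the 4 peak centres (x axis), with the bases shared by all 4 peaks in grey; no bar means no peak in that list. The HHEX centres lie within 17.5 bp and the FOXO1 centres within 134 bp, and both L428-PAX5 rows are empty at all 4 sites.

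At FAM43A, the main site was chromosome 3, 194412351 to 194413106. The −log10 p was 32.1 in Raji 1, 46.0 in Raji 2, 73.2 in Namalwa 1 and 23.7 in Namalwa 2. The ranks were 26 and 30 in Raji and 26 and 71 in Namalwa. As a percent of the list, Namalwa 2 placed the site lowest, at 3.37% against 0.417 to 0.993% in the other lists. Namalwa 2, the shortest list, did so at every main site, with 0.664% at LAPTM5, 1.38% at HHEX and 4.70% at FOXO1.

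The FAM43A peaks were the widest of the 4 sites on average and the most alike in width. They measured 664 and 727 bp in Raji and 723 and 681 bp in Namalwa, a mean of 699 ± 31 bp (SD, n = 4). Each was wider than the median of the strongest 5% of its list but under the upper quartile. These upper quartiles were 716 and 748.5 bp in Raji and 841 and 761 bp in Namalwa. Of the 695 regions of the class, 16.8% had a larger mean width. The 614 bp covered by all 4 peaks (194412442 to 194413056) made up 81.3% of the span, the highest share of the 4 sites.

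**Figure D4:**
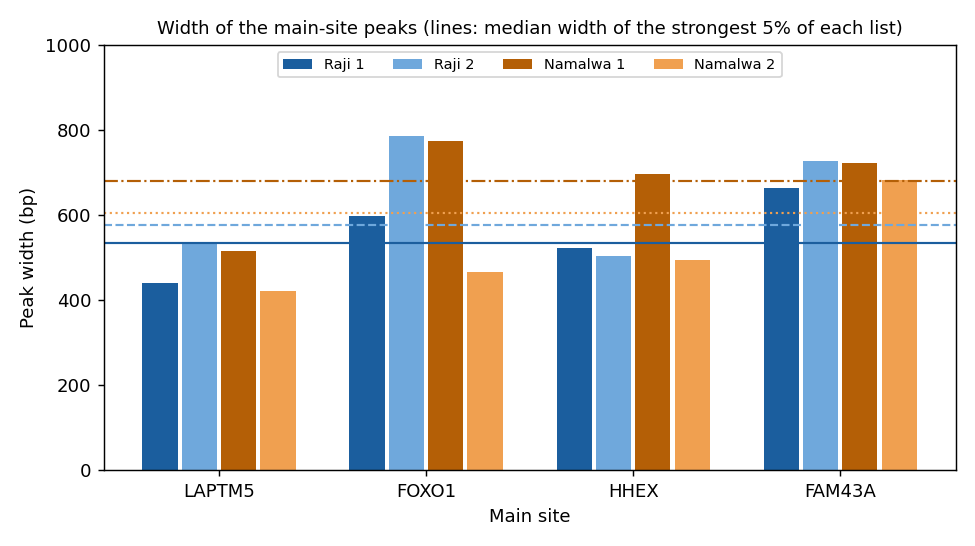
Width in bp of the peak at each main site (y axis) in the 4 Burkitt libraries (colours); each horizontal line is the median width of the strongest 5% of the list of the same colour. All LAPTM5 bars lie under their lines and all FAM43A bars above theirs, with widths of 422 to 535 bp and 664 to 727 bp.

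FAM43A was the only one of the 4 windows with an L428-PAX5 peak. The region 194406353 to 194407139, 6.0 kb below the main site, had a peak in both Namalwa and both L428-PAX5 lists and in no Raji list. Its −log10 p was 25.4 in Namalwa 1, 9.71 in Namalwa 2, 9.09 in L428-PAX5 1 and 7.29 in L428-PAX5 2. Namalwa 1 was highest. The ranks were 479 of 6241 in Namalwa 1, 669 of 2107 in Namalwa 2, 2025 of 6201 in L428-PAX5 1 and 1517 of 3252 in L428-PAX5 2, which are lists of different length.

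The 2 L428-PAX5 peaks at FAM43A were 329 and 356 bp wide, and the Namalwa peaks 747 and 560 bp. This pattern of lists was rare, with 18 of the 14465 regions (0.124%). The region was noticed because it overlaps a window, and nothing is read from its being 1 of 12 neighbours. In L428-PAX5 the edge of the main site was 5.49 and 5.50 kb from this peak. Both L428-PAX5 libraries thus had a PAX5 peak close to a main site that neither had. Raji had no peak in the FAM43A window beside the main site, while Namalwa had peaks at both.

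The main sites are in both Burkitt lines by choice. Of the 12 neighbours, 4 had peaks in both Burkitt lines, a pattern of 20.4% of all merged regions. A further 6 were in Namalwa and not in Raji (23.6% of all regions), 1 of them, at FAM43A, also in L428-PAX5, and 2 were in Raji and not in Namalwa (16.3% of all). All regions include those found in L428-PAX5 alone. A peak in a single list was found for 4 of the 12, against 55.1% of all regions, and 3 of these 4 were in Namalwa 1, the longest list. The 26 neighbour peaks had a −log10 p of 5.01 to 25.4 and a median width of 363 bp, and the 16 main-site peaks 20.8 to 95.7 and 566.5 bp. A region counts here once for each list that holds it. Main sites were chosen by p, and strong peaks of these lists are wider, so nothing is read from either difference. With each list reduced to its 2107 best peaks, 8 of the 12 neighbours still had a peak, 5 in Raji and 6 in Namalwa. With the better 50% of each list, 7 did, 1 in Raji and 6 in Namalwa. No neighbour was in all 4 Burkitt lists under either setting.

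An L428-PAX5 peak was present in 1 of the 16 regions and in 47.6% of all regions, but the windows were chosen around sites that lack one, so nothing is read from this difference. The setting of the windows can be described by drawing windows of the same extent around all 695 regions of the class. No L428-PAX5 region lay in 71.4% of those with the LAPTM5 extent, 55.1% with the FOXO1 extent, 64.2% with the HHEX extent and 76.3% with the FAM43A extent, though the FAM43A window itself held such a region. The 5 neighbours of LAPTM5 were reached or exceeded in 8.06% of such windows (median 1). The 4 of FOXO1 were reached in 29.2% (median 2), the 2 of HHEX in 50.2% (median 2) and the 1 of FAM43A in 61.3% (median 1). Most of the class is weaker than the main sites, and neighbours were not compared among regions of like strength. A region with no peak in L428-PAX5 may lie under the threshold of those lists, whose weakest peaks had a −log10 p of 5.01. At unknown depth its absence from the list does not show absence of binding. The same limit holds for a region with no peak in a Raji or Namalwa list. Their weakest peaks also had a −log10 p of 5.01, and their lists held from 2107 to 6241 peaks.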

How the data were processed

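PAX5 chromatin immunoprecipitation and sequencing covered 3 lines, with 2 precipitated and 2 input libraries each (12 samples), grouped by title. The inputs were not analysed here. The authors deposited 1 peak list per precipitated library, with a p-value for each peak. All are under 1e-05, and whether they are adjusted, and whether starts count from 0 or 1, is not stated in them. CASAVA 1.3 and 1.8, BWA 0.5.9-r16 and hg19 stand in the submitters' processing notes. The peak names carry PeakRanger, per the file columns. The sources used here do not give its settings or whether it used the input.

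Peaks overlapping by 1 bp or touching were merged across lists. Ranks run from the smallest p within a list, width is end minus start, and the main site is the Burkitt-only region of a window with the highest mean percentile. Every region in a window is reported. The genes, windows and alternatives were chosen with earlier results of these data known, and the motifs and the width of the strongest peaks after the data were seen. No test was made, since the rule used the presence and p of these peaks. A planned list of further B-cell genes was not used, because the annotation at hand is on another build. Merging and ranking were tested on simulated lists of widely spaced regions, which do not cover regions as close together as some in the windows. Tables were made with pandas 2.3.3 and numpy 2.4.6 in Python 3.11.15, intervals with scipy 1.17.1 and plots with matplotlib 3.10.9.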

Additional observations from a re-analysis of the deposited data

How the results depend on the processing

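Results were recomputed with reciprocal overlap at 50%, peak centres at most 200 bp apart, the 50% of each list with the smaller p, lists of 2107 peaks, windows widened by 50 kb and each library left out. The 4 main sites were chosen for presence, absence and rank, so that leaving out a list or shortening the lists could not change their class, and with the other overlap rules all 4 also stayed in it. The share of all regions in this class moved from 4.80% to 4.30% with reciprocal overlap and 4.31% by peak centres. In lists of equal length it was 8.23%. With a library left out it ran from 5.16 to 8.54%, highest without Namalwa replicate 2, the shortest list. Without any 1 of the Burkitt lists, fewer lists must hold a region. In the windows, 5 such regions became 4 in the better part of each list and in lists of equal length, 6 in windows widened by 50 kb and 7 without Namalwa replicate 2. Widening raised the regions with an L428-PAX5 peak from 1 to 2, by the peak below FOXO1. With the better part of each list, the mean percentile within the shortened lists was 99.4 at LAPTM5, 98.7 at HHEX, 97.3 at FAM43A and 96.6 at FOXO1, lower because weaker peaks leave the lists. The numbers of regions were then 4 at LAPTM5, 3 at FOXO1, 2 at HHEX and 2 at FAM43A. Without Namalwa replicate 1, the number of regions in the windows was 13, and with any other library left out 15 or 16. Each line rests on 2 lists of unknown depth.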
